A study of Mus musculus with 2 samples.

Results

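The genes of 8 integrin subunits of blood cells held 38 of the 28438 regions of open chromatin found in mouse blood monocytes. The genes were Itgam, Itgax, Itgal, Itgb2, Itga4, Itgb1, Itgb7 and Itga2b. A region was given to a gene where its summit, the position of strongest signal, lay in the gene body, or within 100 kb of the gene's transcription start site (TSS) with no other protein-coding TSS closer. The regions were made by merging overlapping peaks of the authors' conservative set, which keeps peaks whose rank was reproducible between replicates, and a region's strength played no part in giving it to a gene.

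Open chromatin was assayed by ATAC-seq, in which the Tn5 transposase cuts DNA that is not covered by nucleosomes, in primary monocytes. The cells came from peripheral blood of the C57BL/6J strain, from adults aged 5 to 6 weeks. The only group was of 2 biological replicates of 50000 cells each, with no control group, and the labels name no treatment or genotype change. They say that sex was not collected, and they give both replicates 1 donor identifier without saying whether these were separate animals, so their spread may be a technical one only. The replicates' own looser sets held 39579 and 39886 regions, and because no read counts were given the depth is unknown. Among marker genes, 7 of 8 monocyte promoters were open, with Ccr2 the exception, and its gene had 3 regions. Over all protein-coding genes, 46.6% had an open promoter, which is a region within 1 kb of a coding TSS. Of the markers of other cells, promoters were open at 1 of 6 for NK cells, 0 of 6 for T cells and 2 of 6 for B cells. The counts were 0 of 6 for neutrophils, 1 of 6 for erythroid cells, 2 of 5 for dendritic cells and 0 of 10 for platelets. At least 1 region of any kind was given to 4 NK, 3 T, 5 B, 3 neutrophil, 1 erythroid, 4 dendritic and 3 platelet markers. All 8 monocyte markers had one, and over all protein-coding genes the share was 58.2%. What such cells added to the integrin regions was not tested.

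Integrins are adhesion receptors made of an alpha and a beta chain, and they switch between a bent, inactive form and an extended, ligand-binding form when talin and kindlin bind the tail of the beta chain. On monocytes the alpha chains encoded by Itgal, Itgam and Itgax pair with the product of Itgb2, and these receptors serve arrest on endothelium, uptake of complement-coated particles and binding of fibrinogen. The Itga4 product pairs with that of Itgb1 to bind VCAM1 and fibronectin, or with that of Itgb7 to bind the gut addressin MAdCAM1, while the Itga2b product is the alpha chain of the fibrinogen receptor of platelets.

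The sequences below, of mouse GRCm38.p6 (mm10) as given by RefSeq, are those of 5 distal regions and 3 promoters that carry the main contrasts. A promoter region is one within 1 kb of a protein-coding TSS, and all others are called distal. The distal stretches surround the summit, and the promoter stretches are the part of the region just upstream of the gene's 5′ end. Each runs 5′ to 3′ on the gene's strand, and capitals mark matches, on either strand, to short motifs of known factors described further on. The first 3 are distal regions of members that each hold a C/EBP-type match.
Itgam intron 12: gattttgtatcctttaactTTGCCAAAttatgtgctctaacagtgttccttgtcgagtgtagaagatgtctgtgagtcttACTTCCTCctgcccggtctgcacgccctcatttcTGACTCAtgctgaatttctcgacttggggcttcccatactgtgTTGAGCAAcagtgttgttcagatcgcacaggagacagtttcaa
Itgb2 intron 8: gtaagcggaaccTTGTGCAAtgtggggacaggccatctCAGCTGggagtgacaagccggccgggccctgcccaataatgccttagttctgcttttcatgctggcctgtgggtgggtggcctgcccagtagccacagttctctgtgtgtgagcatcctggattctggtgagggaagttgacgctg
Itgal upstream: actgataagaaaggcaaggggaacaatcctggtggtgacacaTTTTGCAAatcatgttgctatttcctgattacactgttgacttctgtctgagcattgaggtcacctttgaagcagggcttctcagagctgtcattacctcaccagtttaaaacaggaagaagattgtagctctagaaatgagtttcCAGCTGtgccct
These lie at chr7:128089223-128089422 (plus strand), chr10:77551069-77551252 (plus) and chr7:127288040-127288239 (plus), in the order printed.

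The next pair shows a distal region with no match to any motif searched and the single region of Itga2b, which holds 3 matches to the SP-type motif on the opposite strand.
Itgb1 intron 3: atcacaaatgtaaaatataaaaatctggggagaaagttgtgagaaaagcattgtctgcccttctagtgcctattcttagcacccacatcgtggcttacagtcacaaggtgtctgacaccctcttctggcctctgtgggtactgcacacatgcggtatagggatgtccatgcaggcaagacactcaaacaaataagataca
Itga2b intron 4: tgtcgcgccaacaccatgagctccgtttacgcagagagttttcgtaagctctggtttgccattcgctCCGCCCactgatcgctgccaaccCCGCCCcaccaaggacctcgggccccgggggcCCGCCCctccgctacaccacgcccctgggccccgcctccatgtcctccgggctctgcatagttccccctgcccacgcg
The Itgb1 stretch is at chr8:128709351-128709550 (plus strand) and the Itga2b stretch at chr11:102467170-102467369 (minus strand).

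The 3 promoter stretches show 2 that are poor in CpG, of Itgam and Itgax, and the CpG-rich one of Itgb1.
Itgam promoter: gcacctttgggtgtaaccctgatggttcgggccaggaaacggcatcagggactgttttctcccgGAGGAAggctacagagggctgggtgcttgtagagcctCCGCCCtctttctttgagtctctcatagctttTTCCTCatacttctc
Itgax promoter: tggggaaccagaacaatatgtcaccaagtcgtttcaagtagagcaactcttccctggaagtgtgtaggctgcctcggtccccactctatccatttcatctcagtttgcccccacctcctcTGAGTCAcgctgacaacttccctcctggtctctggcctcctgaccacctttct
Itgb1 promoter: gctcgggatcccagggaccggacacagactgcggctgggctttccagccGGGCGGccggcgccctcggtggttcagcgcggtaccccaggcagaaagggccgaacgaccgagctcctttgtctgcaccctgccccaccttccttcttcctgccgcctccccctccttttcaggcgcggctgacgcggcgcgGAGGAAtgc
They lie at chr7:128062492-128062639, chr7:128129374-128129546 and chr8:128685454-128685653, all on the plus strand.

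Of the 8 genes, 7 had an open promoter in the conservative set, and Itga2b was the exception. Over all 21853 protein-coding genes the share was 46.6%. All 8 genes had at least 1 region (58.2% of all genes), 7 had at least 3 (16.6%) and 4 had at least 6 (4.26%). Itgam, Itgb2 and Itga4 had 7 regions each, Itgal had 6, Itgb1 had 4, Itgax and Itgb7 had 3 each and Itga2b had 1. The sequence in which a summit would be given to 1 of the genes summed to 638.8 kb, so the regions stood at 5.95 per 100 kb, against 1.52 per 100 kb for all protein-coding genes. Itgb2 had 16.4 per 100 kb, Itgal 12, Itgb7 11.6, Itgax 10.8 and Itgam 8.24. Itga4 had 3.94, Itgb1 had 2.35 and Itga2b, at 1.67, was close to the value for all genes. The counts per gene, and so the order of these densities, moved when 1 library was left out and the other's own thresholded set stood alone. Without replicate 1 and without replicate 2 there were 4 and 5 regions for Itgam, 3 and 2 for Itgax, 2 and 2 for Itgal, 3 and 4 for Itgb2, 4 and 5 for Itga4, 3 and 2 for Itgb1, 2 and 2 for Itgb7, and 1 and 1 for Itga2b.

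The strength of a region is given here as fold enrichment, the authors' linear ratio of signal at a peak over background, read in each replicate's own pseudoreplicated set at the strongest peak that overlapped the region. Of the 38 integrin regions, 12 were promoter regions, while 37.2% of all regions were. A peak in both replicates was found for 36 of the 38 (94.7%), against 91.1% of all regions. The exceptions were a region 12.8 kb into Itgal, with a fold of 4.39, and one 39.0 kb upstream of Itgb1, with a fold of 3.85, and both had a peak in replicate 2 alone. In the replicates' own, stricter IDR-thresholded sets 19 of 38 (50%) were found in both, against 50.3% of all regions. For the 26 distal integrin regions this count was 14 (53.8%), against 37.9% of all distal regions, and for the 12 promoter regions it was 5 (41.7%), against 71.3% of all promoter regions. These 5 were the strongest promoter regions of Itgam, Itgal, Itgb2, Itga4 and Itgb7. The further, weaker promoter regions of these genes were not found in both. None of the 36 differed by more than 0.5 log2 units between replicates, against 4.10% of all regions with a peak in both.

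**Figure D1:**
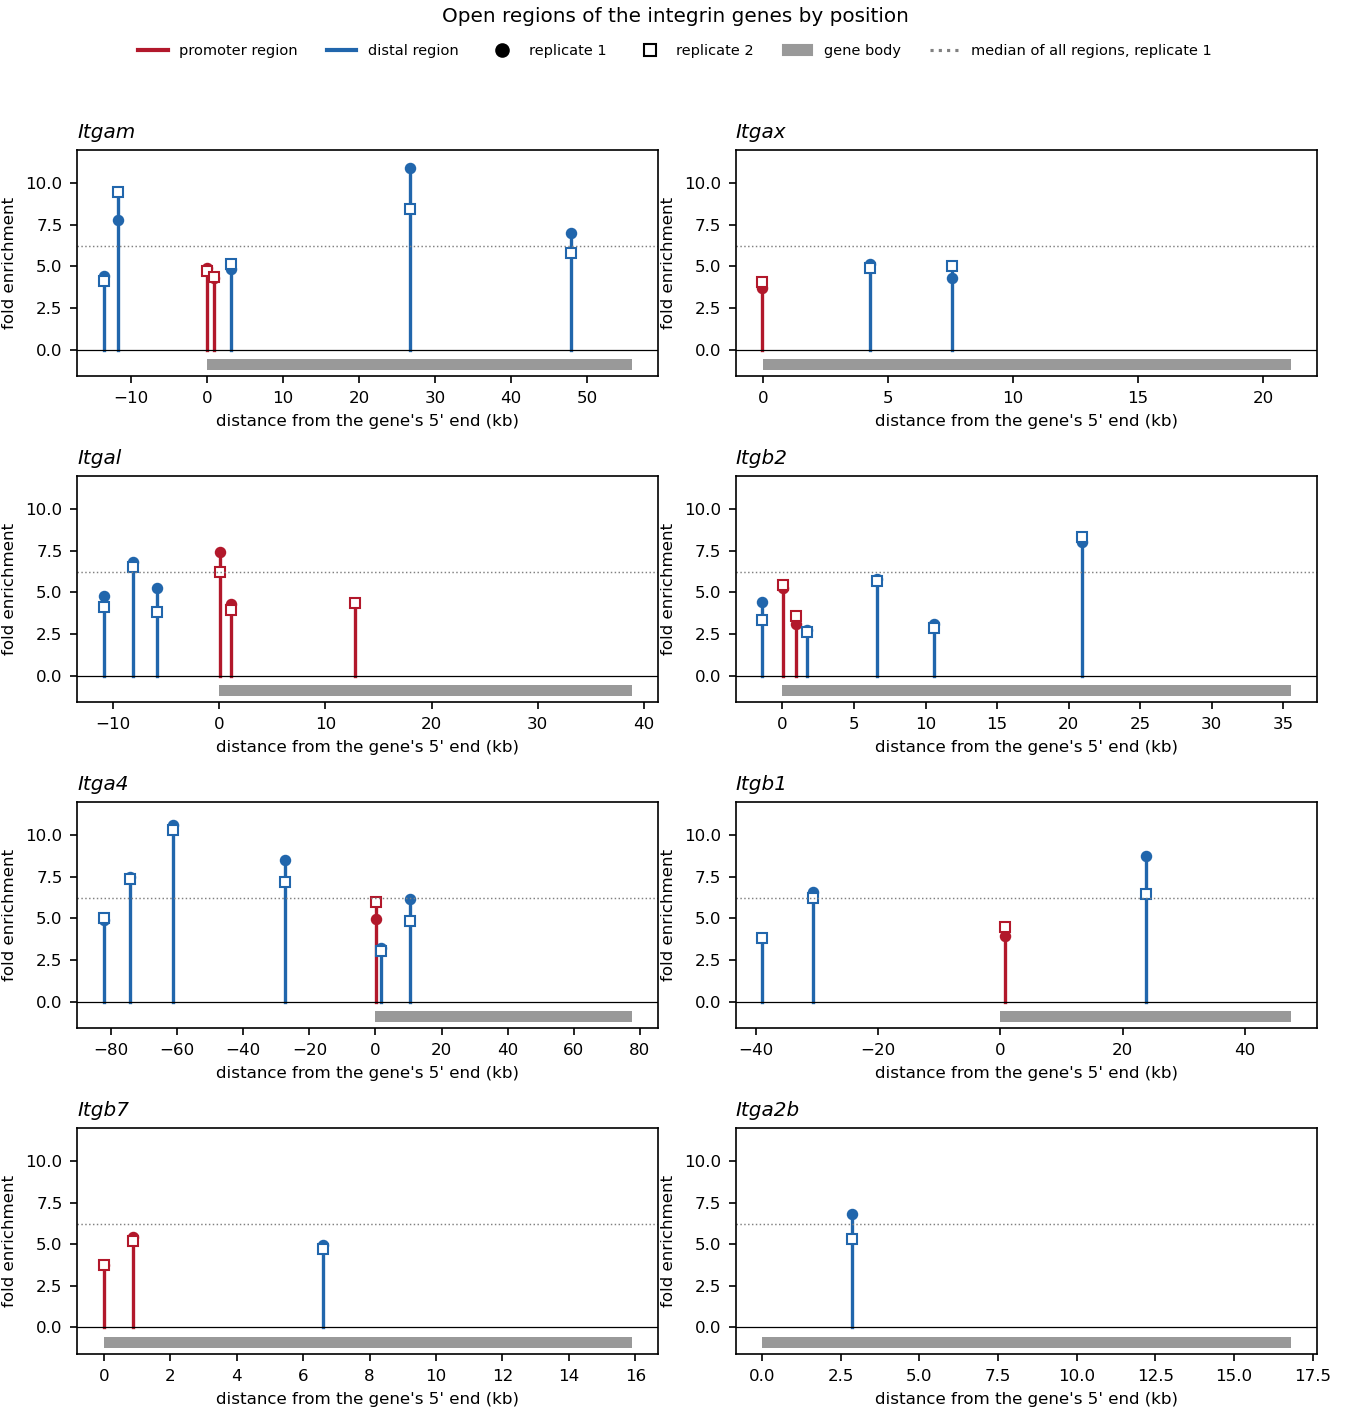
Fold enrichment (linear ratio, vertical axis) of the integrin regions by distance of the summit from the gene's 5′ end (kb, in the direction of transcription), in 1 panel per gene. Filled circles are replicate 1, open squares replicate 2, red stems promoter regions, blue stems distal regions, grey bars gene bodies, and the dotted line is the median of all regions in replicate 1 (6.23). The tallest stems, of Itga4 at -61.4 kb and Itgam at +26.7 kb, stand away from the 5′ ends.

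Itgam encodes the alpha chain CD11b, and it lies on chromosome 7 from 128062640 to 128118491. Its strongest region was in intron 12, 26.7 kb from the 5′ end, with folds of 10.9 in replicate 1 and 8.43 in replicate 2 (9.64 ± 1.72, SD, n = 2). A region 11.7 kb upstream had folds of 7.80 and 9.47 (8.64 ± 1.18, SD, n = 2), and the replicates of these 2 regions overlapped in value. The promoter region, with its summit at the second base of the gene, was weaker in both replicates, with folds of 4.92 and 4.73, and a further promoter region 0.95 kb into the gene, in intron 1, had 4.33 and 4.35. Both promoter regions also lay within 1 kb of a coding start of Gm49368, a gene model that overlaps Itgam on the same strand, so they cannot be assigned to 1 of these genes. A region in intron 16, 47.9 kb from the Itgam 5′ end, had folds of 7.0 and 5.79, and the TSS nearest to it was also one of Gm49368. The other 2 regions, 13.6 kb upstream and 3.1 kb into the gene, had mean folds of 4.30 and 4.99.

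Itgax encodes the alpha chain CD11c, known as a marker of dendritic cells that blood monocytes also carry at varied levels, and it follows Itgam on chromosome 7, from 128129547 to 128150657. Its promoter region, with folds of 3.72 in replicate 1 and 4.05 in replicate 2, had the lowest mean when each gene's strongest promoter region was compared. Lower means than that of Itgax were found at the weaker promoter regions of Itgb2 (3.34) and Itgb7 (3.75), which stood beside stronger ones. Regions in intron 8 and intron 14 of Itgax were stronger than its promoter region in both replicates. Their folds were 5.14 and 4.91 at 4.3 kb and 4.28 and 5.01 at 7.6 kb from the 5′ end. None of the 3 Itgax regions reached the median of all regions, which was 6.23 in replicate 1 and 6.07 in replicate 2.

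Itgal encodes the alpha chain CD11a, whose receptor binds ICAM proteins, and it lies on chromosome 7 from 127296260 to 127335138. Its promoter was the strongest of the set, with folds of 7.46 and 6.21 (6.84 ± 0.886, SD, n = 2). A region 8.1 kb upstream was of like strength, with 6.85 and 6.53, and the replicates of the 2 regions overlapped. Itgal was thus 1 of 2 members, with Itgb7, in which no distal region exceeded the promoter in both replicates. The regions 8.1 and 5.9 kb upstream overlapped Gm31897, annotated as a long intergenic noncoding RNA, so whether they belong to it or to Itgal cannot be told from these files. The regions 10.9 and 5.9 kb upstream had mean folds of 4.45 and 4.53. A second promoter region, 1.06 kb into the gene, in intron 1, had folds of 4.32 and 3.92, and the region with a peak in replicate 2 alone counted as a promoter region because it lay 466 bp before the start of a shorter coding transcript.

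Itgb2 encodes the beta chain CD18 that these 3 alpha chains share, and it lies on chromosome 10 from 77530252 to 77565708. Its strongest region was in intron 8, 20.9 kb from the 5′ end, with folds of 8.05 and 8.32 (8.18 ± 0.187, SD, n = 2). The pooled −log10 p of this region was 103, the highest of the 38 and at percentile 95.5 of all regions. The promoter region had folds of 5.24 and 5.46 (5.35 ± 0.162), below the intronic region in both replicates. A region in intron 1, 6.6 kb from the 5′ end, had 5.83 and 5.69, also above the promoter in both. Itgb2 also held the 2 weakest regions of the set, at 1.73 kb with folds of 2.74 and 2.63 and at 10.6 kb with 3.11 and 2.89, both in intron 1. A second promoter region 0.92 kb into the gene, in intron 1, had 3.11 and 3.57, and a region 1.41 kb upstream had 4.43 and 3.36.

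Itga4 encodes the alpha chain CD49d and lies on chromosome 2 from 79255426 to 79333123. Its 3 strongest regions were all upstream and far from the gene. The region 61.4 kb upstream had folds of 10.6 and 10.3 (10.5 ± 0.262, SD, n = 2), and its pooled fold of 11.5, the highest of the 38, was at percentile 93.5 of all regions. Those 27.3 and 74.4 kb upstream had folds of 8.50 and 7.21 and of 7.52 and 7.39, and all 3 exceeded the promoter in both replicates. The promoter region, 1559 bp wide and the widest of the 38, had folds of 4.99 and 5.96 (5.48 ± 0.687). The remaining 3 Itga4 regions, 82.3 kb upstream and 1.7 and 10.4 kb into the gene, had mean folds of 4.95, 3.11 and 5.49. The upstream regions were given to Itga4 because its TSS was the nearest protein-coding one, which does not show that they act on it.

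Itgb1 encodes the beta chain CD29, which most cell types express, and lies on chromosome 8 from 128685654 to 128733200. A region in intron 3, 23.8 kb from the 5′ end, had folds of 8.78 and 6.44 (7.61 ± 1.65, SD, n = 2), and one 30.6 kb upstream had 6.61 and 6.25. The upstream region overlapped Gm45746, a transcript model still to be experimentally checked. The promoter region, merged from 4 peaks, was weaker than both in each replicate, with folds of 3.93 and 4.46. Each replicate had a peak at the 5′ end and another about 0.69 kb into the gene of nearly equal strength. At the 5′ end these peaks had folds of 3.78 and 4.35.

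Itgb7, whose product pairs with that of Itga4, lies on the minus strand of chromosome 15 from 102215995 to 102231944. Its region at the 5′ end was weak, with folds of 3.75 and 3.74, and the promoter region 0.87 kb into the gene, in intron 1, had 5.42 and 5.22 (5.32 ± 0.145, SD, n = 2). Its single distal region, 6.6 kb into the gene in intron 2, had folds of 4.97 and 4.75, below that promoter region in both replicates.

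Itga2b, the platelet gene of the set, lies on the minus strand of chromosome 11 from 102453297 to 102470122. Its single region was in intron 4, 2.9 kb from the 5′ end, with folds of 6.81 and 5.31 (6.06 ± 1.06, SD, n = 2). Near its 5′ end the conservative set held no peak, and the replicates' own looser sets held peaks with folds of 3.49 and 2.64. Of 10 other platelet and megakaryocyte genes, including Itgb3, the partner of Itga2b, none had an open promoter in the conservative set or a promoter peak in either replicate's own set. Of these 10 genes, Gp9, Itgb3 and Clec1b had regions away from their own promoters, and Itgb3 had 2, the stronger with folds of 7.89 and 9.95.

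**Figure D2:**
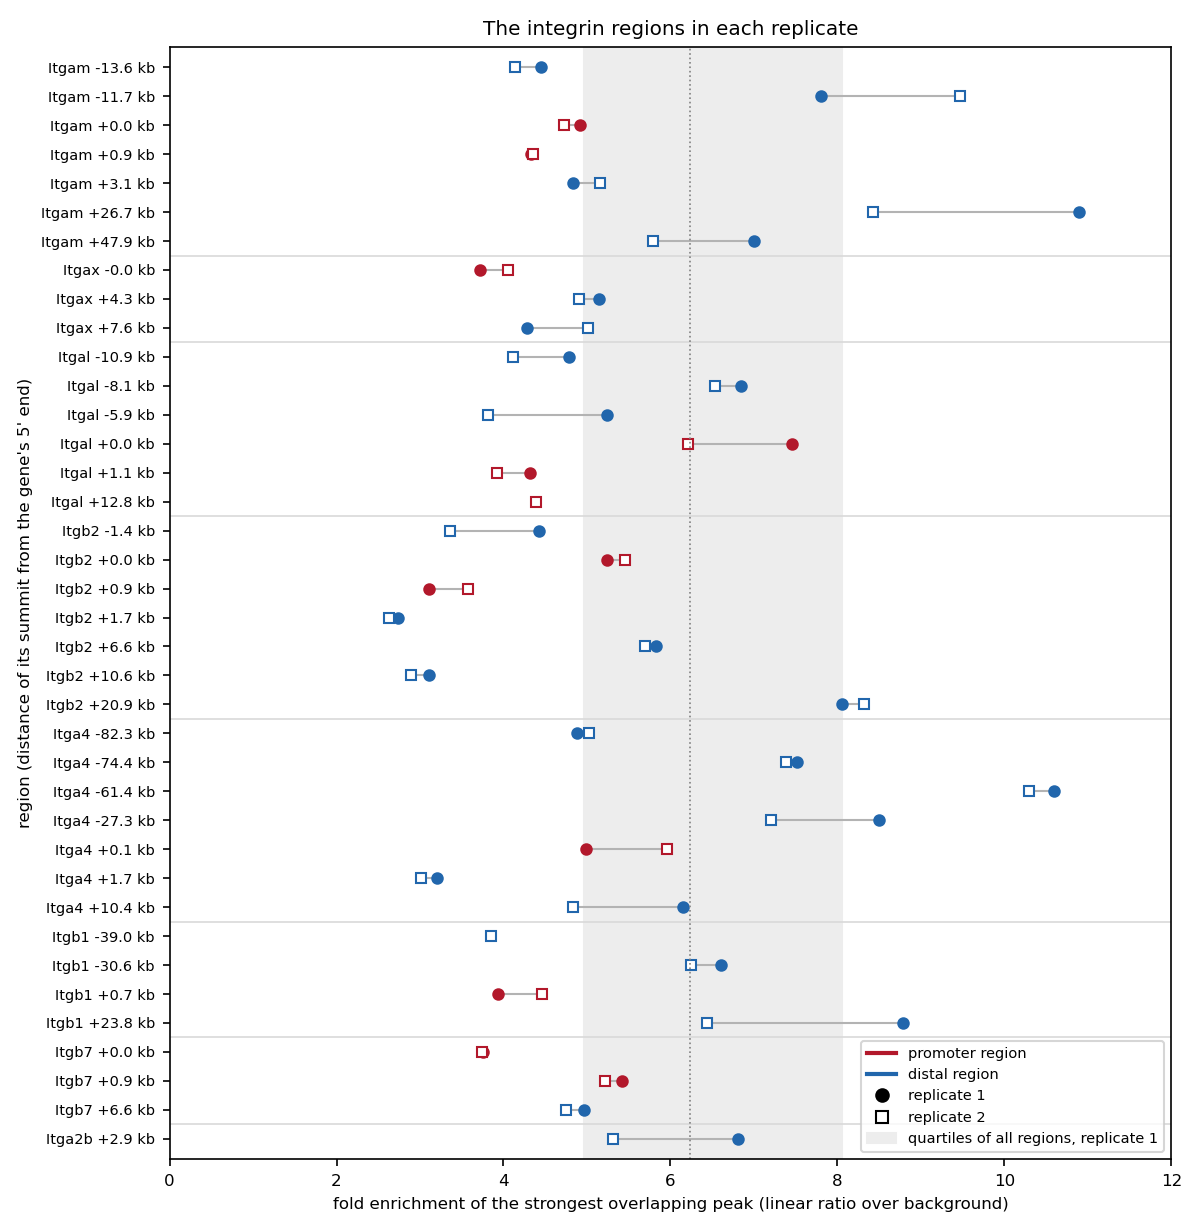
Fold enrichment (linear ratio, horizontal axis) of each of the 38 integrin regions in replicate 1 (filled circles) and replicate 2 (open squares), named by gene and by the distance of the summit from its 5′ end, with promoter regions in red and distal regions in blue. The grey band spans the quartiles of all regions in replicate 1 (4.96 to 8.06) and the dotted line their median (6.23). The promoter regions lie left of that line in both replicates, except the strongest of Itgal in replicate 1. In replicate 2 that region, at 6.21, was above the replicate's own median of 6.07. The 2 rows with a single square had a peak in replicate 2 alone.

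Ordered by the mean fold of the strongest promoter region, the genes ran Itgal (6.84), Itga4 (5.48), Itgb2 (5.35), Itgb7 (5.32), Itgam (4.83), Itgb1 (4.19) and Itgax (3.88). Replicate values overlapped between the neighbours Itga4 and Itgb2, Itgb2 and Itgb7, and Itgb1 and Itgax, so the order within these pairs is not larger than the spread. They did not overlap between Itgal and Itga4, Itgb7 and Itgam, or Itgam and Itgb1. With 2 replicates of 1 group no test was made. The integrin promoters stood low among promoters: the median pooled fold of the 12 promoter regions was 4.61, against 7.64 for all 10589 promoter regions. The 12 include further, weaker promoter regions of Itgam, Itgal, Itgb2 and Itgb7, which lower this median. Counting only each gene's strongest promoter region, the pooled folds ran from percentile 7.01 (Itgax) to 47.9 (Itgal) of that class. The median of the 26 distal integrin regions was 5.74, against 6.06 for all 17849 distal regions. Over all 38 the median was 5.22, against 6.49 for all regions.

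In 5 of the 7 genes with both kinds of region, the strongest distal region exceeded the strongest promoter region in both replicates, against 33.5% of the 4563 genes with a promoter region and any other region. The log2 ratio of distal over promoter was 1.14 and 0.83 for Itgam, 1.09 and 0.78 for Itga4, 1.16 and 0.53 for Itgb1, 0.62 and 0.61 for Itgb2, and 0.47 and 0.28 for Itgax. For Itgal it was -0.12 and 0.07, so the replicates differed in sign. For Itgb7 it was -0.13 in both. Genes with more distal regions have more chances of a strong one, and the members were not matched to other genes in this number.

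**Figure D3:**
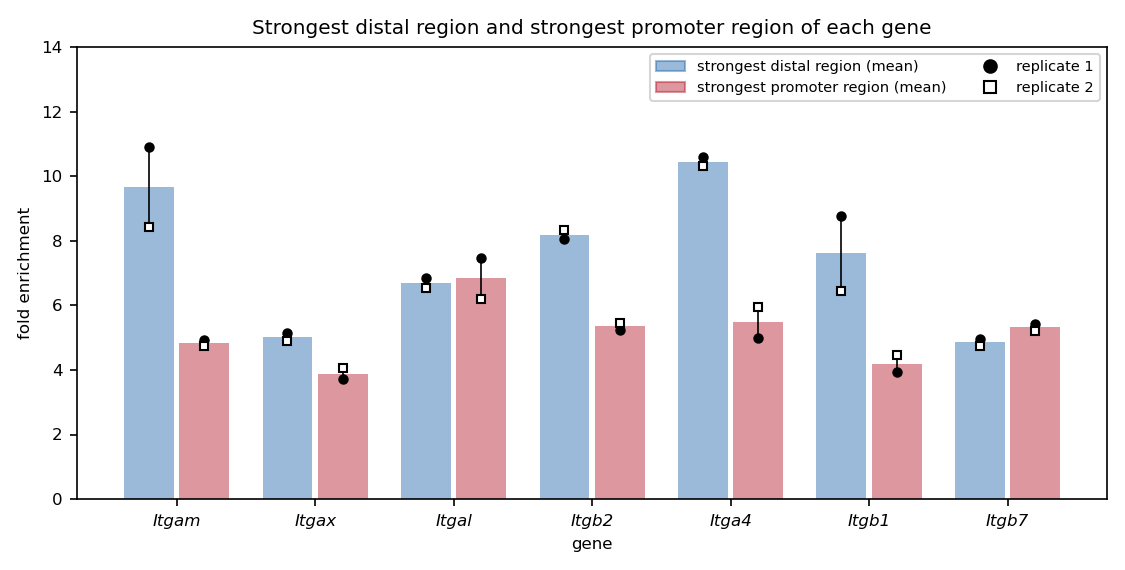
Fold enrichment (linear ratio) of the strongest distal region (blue, left) and of the strongest promoter region (red, right) of the 7 integrin genes with both. Bars are means of the 2 replicates, filled circles replicate 1 and open squares replicate 2. The distal region is the higher in both replicates in 5 genes, with the replicates mixed in Itgal and the promoter higher in both in Itgb7.

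The integrin promoters were mostly poor in CpG. The CpG ratio, the observed count of CG over that expected from the C and G content, within 500 bp of the gene's 5′ end was 0.93 for Itgb1 and 0.47 for Itga4. It was between 0.16 and 0.31 for the other 6 genes, against a median of 0.56 for all protein-coding genes. Itgb1, the broadly expressed subunit, was the single member above that median, at percentile 93.9. Within 100 bp of the summit the median ratio of the 12 promoter regions was 0.146, against 0.777 for all promoter regions, and that of the 26 distal regions was 0.185, against 0.246 for all distal regions. The Itga2b intronic region differed from the other distal regions in this, with a ratio of 0.86, against 0 to 0.49 in the other 25, and a GC content of 68.2%. Summits of the replicates' peaks with the smallest p were a median of 19.5 bp apart at integrin regions, against 14 bp at all regions.

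Short motifs were searched on both strands within 100 bp of each summit, with 12 motifs in all. The matches are descriptions of the sequence and do not show binding. Integrin regions were not matched to other regions in CpG or GC content. The median GC content in these windows was 54.7% at integrin promoter regions, against 62.7% at all promoter regions. The C/EBP-type motif TTGCNNAA, of a factor family with roles in myeloid genes, was found in 11 of 26 distal integrin regions (42.3%), against 13.5% of all distal regions. It was in 0 of 12 integrin promoter regions, against 6.22% of all promoter regions. The E-box CAGCTG was in 9 of 26 distal regions (34.6%), against 14.5%, and in 1 of 12 promoter regions (8.33%), against 10.8%. In the printed Itgb2 and Itgal stretches the C/EBP-type and E-box matches stand in 1 window.

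The RUNX-type motif TGTGGT was in 6 of 12 promoter regions (50%), against 10% of all promoter regions, and in 4 of 26 distal regions (15.4%), against 24.5% of all distal ones. Both Itgam promoter regions were among the 6, with those of Itgax, Itgal at 12.8 kb, Itgb2 at 0.92 kb and Itgb7 at 0.87 kb. The PU.1-type motif GAGGAAGT was in 3 of 12 promoter regions (25%), those at the 5′ ends of Itgal, Itgb2 and Itgb7, against 3.97%, and in 5 of 26 distal regions (19.2%), against 11.9%. Its shorter core GAGGAA, which every such match holds, was in 4 of 12 promoter regions (33.3%), against 22.5%, and in 9 of 26 distal regions (34.6%), against 39.3%. The SP-type motif GGGCGG, common in CpG-rich promoters, was in 2 of 12 promoter regions (16.7%), those of Itgam and Itga4, against 56.0%. It was in 1 of 26 distal regions (3.85%), that of Itga2b, against 10.3%. The GGGCGG and GAGGAA marked in the printed Itgb1 promoter stretch are not in these counts. The summit of that region was 687 bp into the gene, so the stretch lay outside the window searched.

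The remaining motifs were rare. The GATA-type AGATAA was in 3 of 26 distal regions (11.5%), against 6.43%, and in 1 of 12 promoter regions (8.33%), against 2.67%. The AP-1-type TGANTCA was in 2 distal regions (7.69%), against 11.3%, and in 1 promoter region (8.33%), that of Itgax, against 3.74%. The KLF-type CCACACCC was in 2 distal regions (7.69%), against 4.53%, and in 0 promoter regions, against 3.26%. The IRF-type motif (GAAA, any 2 bases, GAAA), the ETS-IRF composite (GGAA, any 2 bases, GAAA) and the CRE TGACGTCA were each in 1 distal region (3.85%), against 3.60%, 5.59% and 0.768%. Each was in 0 promoter regions, against 2.09%, 2.25% and 3.48%.

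**Figure D4:**
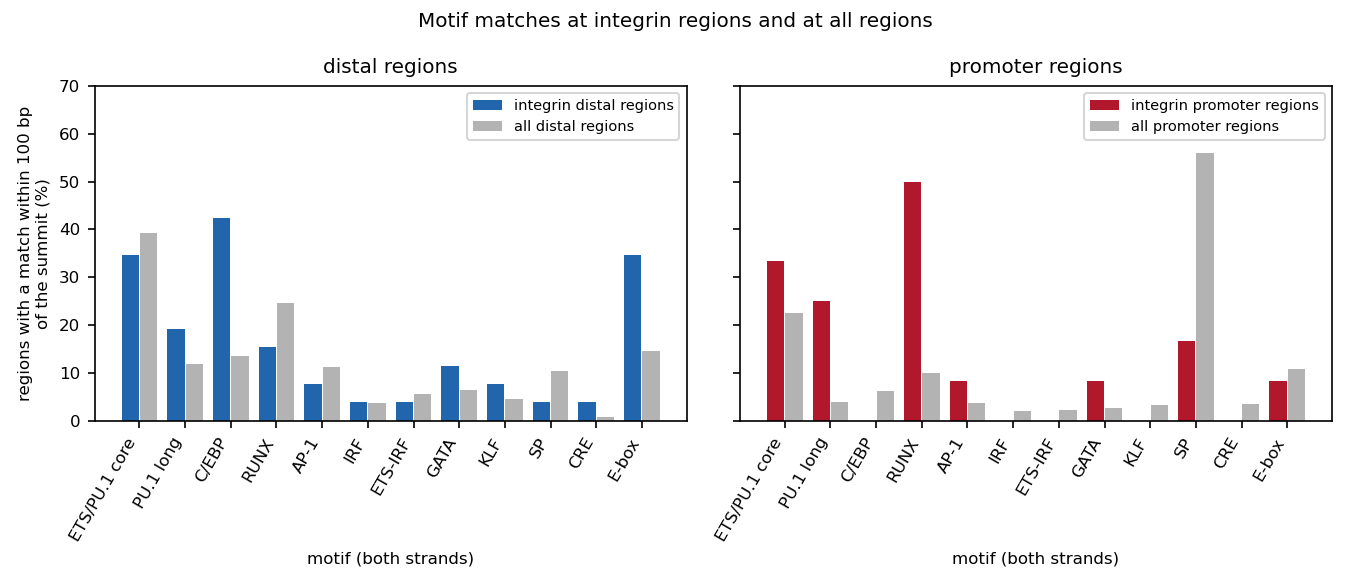
Share of regions (%) with a match to each motif within 100 bp of the summit, for distal regions (left panel) and promoter regions (right panel). Coloured bars are the integrin regions (26 distal, 12 promoter) and grey bars all regions of that class. The C/EBP-type and E-box bars are the ones most above grey among distal regions, the RUNX-type and PU.1-type bars among promoters, and the SP-type promoter bar is below grey.

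Of the other 19 integrin subunit genes, 14 had a region of any kind (73.7%, against 58.2% of all genes). In the conservative set 3 had an open promoter, Itga8, Itgav and Itgb5 (15.8%, against 46.6% of all genes). The count of open promoters was 1 without replicate 1 and 1 without replicate 2, 8 in the replicated set of the series and 10 in its pseudoreplicated set. The share of all genes given here is for the conservative set only, and does not serve as a measure for these counts. Itga8 had most regions with 8, Itgb5 had 5 and Itga5, the fibronectin receptor alpha chain, had 4. Itga7, Itga10 and Itga11 were among the 5 with none. The Itgav promoter, of the vitronectin receptor alpha chain, had folds of 7.47 and 8.13, above every member's promoter in replicate 2 and level with that of Itgal in replicate 1. Itgad, an alpha chain that also pairs with that of Itgb2, had 2 regions and no open promoter.

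Of 29 activation and adaptor genes, 22 had an open promoter (75.9%, against 46.6% of all genes). Fyb, an adaptor that links receptor signals to integrins, had 14 regions, Apbb1ip, whose product recruits talin through Rap1, had 13, and Rapgef1, a Rap1 exchange factor, and Cyth1, which binds the tail of the Itgb2 product, had 12 each. Fermt3, the kindlin of blood cells, had an open promoter with folds of 6.15 and 6.22, while Fermt1 and Fermt2, the kindlins of other tissues, and Parva had no region. Sharpin, an inhibitor of integrins, had 2 promoter regions (the stronger with folds of 8.76 and 7.69) that lay nearer to another gene's TSS. Tln1, the gene of talin, had a promoter peak of 4.43 and 5.54.

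Of 18 ligand genes, 3 had an open promoter (16.7%, against 46.6% of all genes). These were Icam1 (6.63 and 7.20), Icam2 (6.54 and 6.55) and Icam5 (6.28 and 7.15), all of which encode ligands of the Itgal product. The count was 5 in the series' other thresholded set, 11 in the replicated set and 10 in the pseudoreplicated set, and 3 without replicate 1 and without replicate 2. The 46.6% is the share in the conservative set, so it cannot be set beside the counts in these other sets. Vwf had most regions with 9, Icam2 had 5 and F11r had 4. Icam4, Vcam1 and Madcam1, of which the last 2 encode the ligands of the Itga4 pairs, were among the 9 with none.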

How the data were processed

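Peak lists from ATAC-seq, on mm10 per the labels, came from 1 group of 2 replicates. Aligner, caller, versions and Tn5 shift were not given in the sources used here. Fold enrichment (a ratio of signal over background), −log10 p and IDR score of a peak are the authors' values as deposited. The deposited conservative set holds no score under 540.

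Its 39944 peaks were merged where they overlapped, with the highest fold kept and the summit taken from the smallest p, and were read in each replicate's pseudoreplicated set at any overlap of 1 bp. Coding TSSs were those of GENCODE M21 and sequence was that of GRCm38.p6. Depth is unknown, so no counting interval is given, and folds were not rescaled between replicates. With 1 group no contrast exists and no p-value was computed. Merging and assignment were checked on simulated data.

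Members, gene lists and motifs were chosen with earlier results of these data known. Named regions are each gene's promoter regions, its 3 strongest distal regions, and any with a peak in fewer than 2 replicates, and a few others are given by their folds. Of the gene lists, those named have most regions (up to 3, and ties) or none (up to 3), and other listed genes were chosen after their values were seen. Sequences with annotated UTR bases were shortened or left out, and 1 further sequence is not reported here. Alternatives were other peak sets, windows and overlaps, and each replicate's set alone. Python 3.11.15, numpy 2.4.6, pandas 2.3.3, pysam 0.24.0 and matplotlib 3.10.9 were used.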

Additional observations from a re-analysis of the deposited data

How the results depend on the processing

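Of 140 alternatives, 93 left a result within its spread or within 1.5 times its count, and 47 moved it. The number of integrin regions, 38, was 61 in the looser replicated set of the series, 21 among conservative peaks at or above the median −log10 p, and 25 when only gene bodies counted; the median per gene, 5.0, was 8.0, 2.0 and 3.0 under these. With 1 replicate's own thresholded set alone the regions numbered 22 to 23 and the median per gene was 2.0 to 3.0. The smaller counts follow from fewer peaks or less sequence. Requiring a peak in both replicates, an alternative added after seeing the data, left 36. Open promoters were found at 5 to 8 of the 8 genes over all alternatives, and the listed pathway genes with one, 28, were 43 in the pseudoreplicated set. The share of all genes with an open promoter is given for the conservative set only, so these other counts have no such share beside them. In the replicates' own thresholded sets 19 regions rather than 36 were found in both, and the median of the regions' mean folds, 5.007, was 6.059 there; with 1 replicate alone it was 5.014 to 5.064. Regions with GAGGAA, 13 (34.2%, against 33.0% of all regions), were 22 within 200 bp of the summit (57.9%, against 45.8%), a window that holds more sequence. At another gene's promoter within 500 bp lay 1 rather than 2 regions. C/EBP-type matches were in 11 of 26 distal regions within 200 bp (42.3%, against 20.9%) and in 5 within 50 bp (19.2%, against 7.51%). No paired analysis was possible because there is 1 group. The causes of the shifts without a stated one were not tested. Depth is unknown and may set how many peaks were called, so a gene without a region is one where none was called.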
